A study of Mus musculus with 25 samples.

Results

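Raf, Mek and Erk are the kinases that act below Ras, and Erk signalling switches on a set of genes, some of which later restrain it. The 10 genes described here are commonly counted among its targets. They were listed by symbol, with earlier results of these data known. The list holds the MAP kinase phosphatases *Dusp4*, *Dusp5* and *Dusp6* and the Ets transcription factors *Etv4* and *Etv5*. It also holds the Sprouty genes *Spry2* and *Spry4*, their relatives *Spred1* and *Spred2*, and *Phlda1*. These genes are 10 of the 24984 genes counted in the series, and all 10 had at least 10 counts in every library. Dusp5 and Dusp6 remove the activating phosphates from Erk, in the nucleus and in the cytoplasm respectively, and Dusp4 is a nuclear phosphatase that acts on Erk and on other MAP kinases. Sprouty and Spred proteins act upstream, on the activation of Ras and Raf, so the level of their RNAs is commonly read as a record of Erk output rather than as a measure of Ras itself.

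RNA was sequenced from BMEL cells, a clonal line of bipotential progenitors isolated from embryonic liver, and from tumours that such cells formed. The embryos were C57BL/6xC3H, written C57B/6_C3H in the labels. The 3 control cultures carried an empty vector, and the 3 RasLOW and 3 RasHIGH cultures carried human H-Ras G12V in a bicistronic vector with Venus or mCherry and had been sorted for low or high fluorescence. All cultures, the controls included, grew on collagen with EGF, insulin and IGFII. The part of these growth factors in the values below was not tested. From each of 4 athymic nude mice, which lack mature T cells, a liver tumour and a peritoneal tumour were dissociated and sorted into GFP-positive tumour cells and GFP-negative stroma, giving 4 libraries of each kind. The labels do not say which Ras population the tumour cells came from. The study's methods describe the 3 libraries of each cultured population as independent samples, while the labels number them as replicates.

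Total counts per library lay between 20818989 and 51241336, and no 2 libraries held identical counts. Keratins and *Cdh1* marked the BMEL-derived libraries, where the 5 epithelial markers (*Krt8*, *Krt18*, *Krt19*, *Epcam*, *Cdh1*) summed to between 6917 and 10768 CPM (counts scaled to the effective library size) against 675 to 1551 CPM in stroma. *Epcam* went the other way and was nearly absent from BMEL-derived cells, with group means of at most 0.326 CPM there, 5.69 CPM in liver stroma and 4.45 CPM in peritoneal stroma. The sum of 7 leukocyte markers was 21.9 to 218 CPM in tumour cells and came to 4225 to 6739 CPM in stroma. The 6 fibroblast markers reached 1442 CPM in a library of peritoneal tumour cells, against at most 61.5 CPM in liver tumour cells and at least 53472 CPM in peritoneal stroma. The 6 hepatocyte markers stayed at or below 58.1 CPM in BMEL-derived libraries and reached 235 CPM in liver stroma, and the sum of 3 mesothelial markers, 552 to 2619 CPM in cultures and 49.9 to 73.6 CPM in peritoneal stroma, was carried by *Msln*. *Lrrn4* averaged at most 0.286 CPM in a cultured population and 9.09 CPM in peritoneal stroma, and *Upk3b* 15.1 CPM in control, 0.301 CPM in RasHIGH cells and 9.59 CPM in peritoneal stroma. Mouse *Hras* stood at 82.1, 86.6 and 71.1 CPM in control cells, 101, 46.7 and 86.1 CPM in RasLOW cells and, in RasHIGH cells, 50.0, 79.5 and 71.2 CPM, with log2 fold changes of -0.076 and -0.29 against control that did not pass (adjusted p = 0.91 and 0.343 by edgeR). The transgene is a human cDNA whose reads a mouse gene table need not hold, so the Ras level of a culture rests on its label here.

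CPM values below are scaled by TMM factors over all 25 libraries, which makes them comparable between groups for 1 gene. Per kilobase of exon, *Phlda1* and *Dusp6* were the highest of the 10 genes in level in control cells, at 182 ± 29.8 and 172 ± 25.7 CPM per kb (SD, n = 3). *Etv5* and *Spry4* were the lowest there, at 4.06 ± 0.704 and 3.40 ± 0.742 CPM per kb. In liver tumour cells *Dusp5* led, at 218 ± 34.7 CPM per kb, followed by *Dusp6* at 145 ± 14.98 CPM per kb (SD, n = 4). In control cells *Dusp5* was at 33.1 ± 8.35 CPM per kb, so the nuclear Erk phosphatase moved from below its cytoplasmic counterpart to above it.

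**Figure D1:**
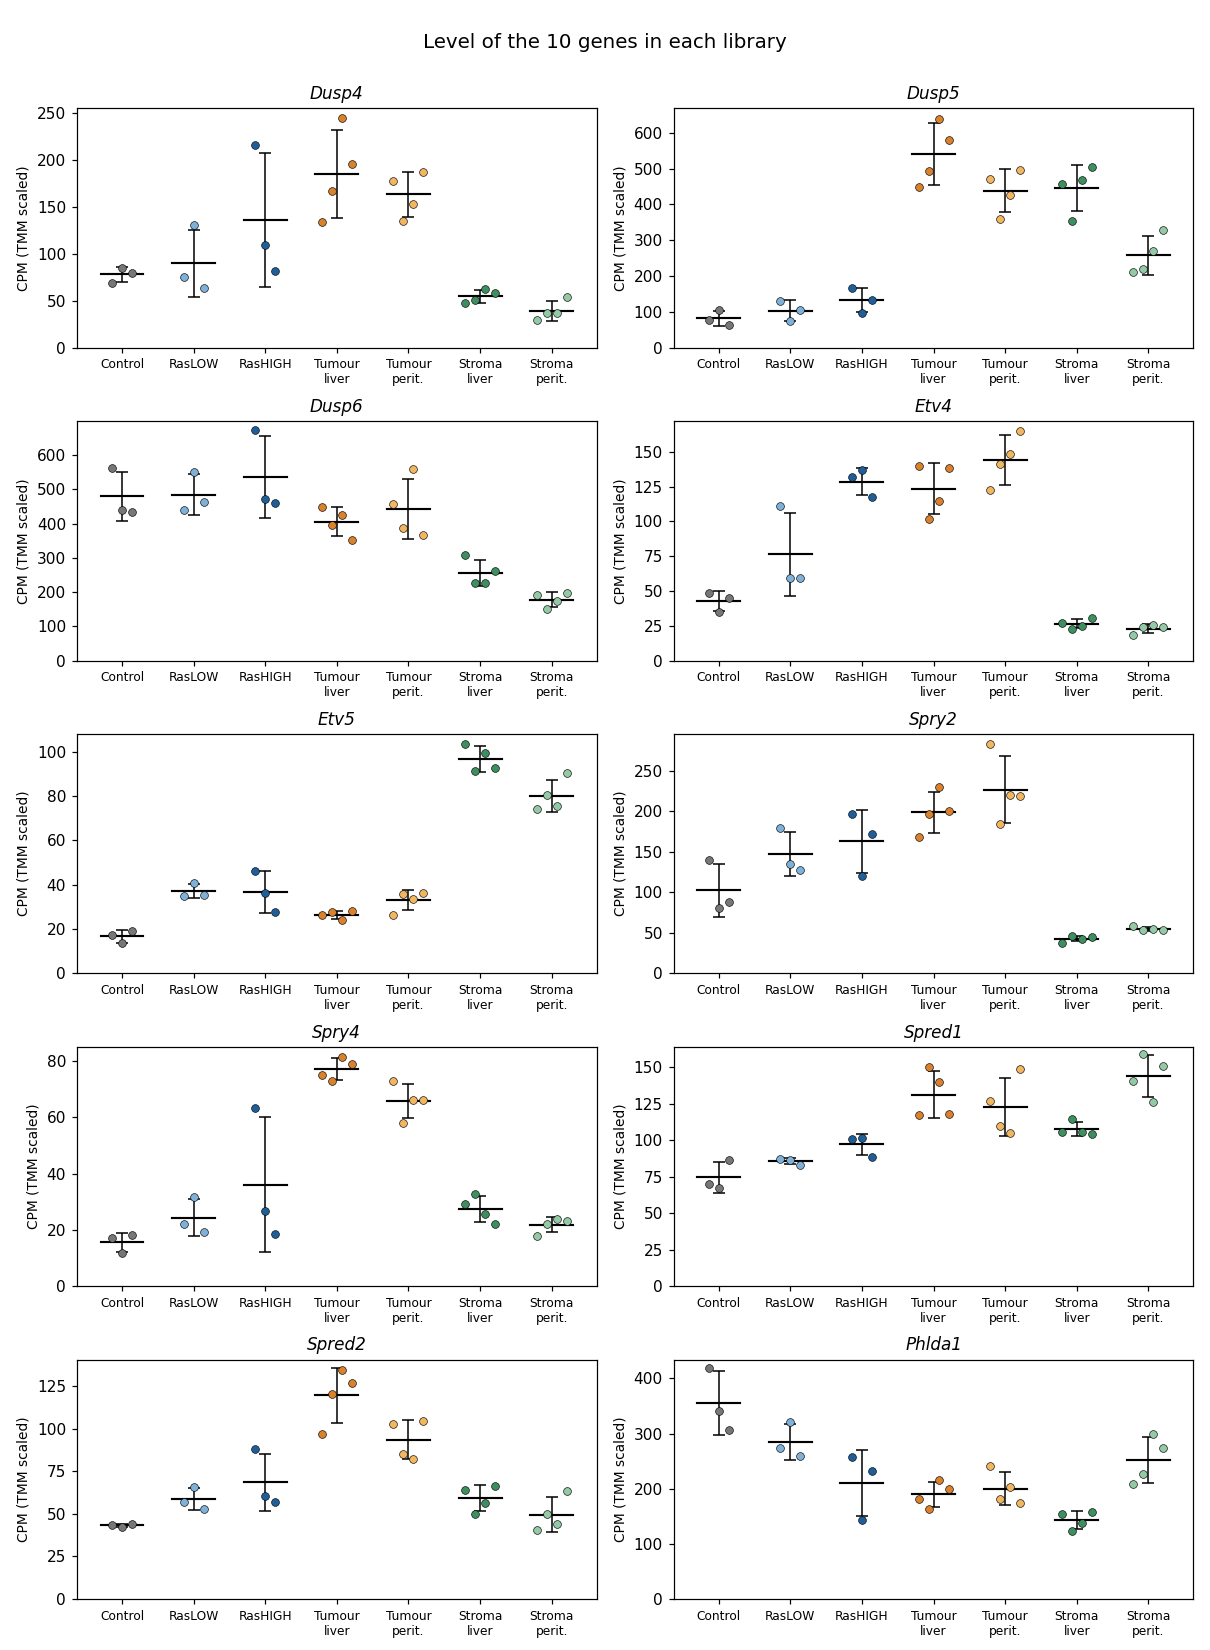
Level of each gene in every library, in CPM with TMM scaling on a linear axis that starts at 0, for the 7 groups. Points are libraries, long bars are group means and whiskers are 1 SD (3 cultures or 4 mice a group). *Etv4* and *Etv5* lie above control in both Ras populations, *Dusp5* is high in everything sorted from a tumour, and *Etv5* is highest in stroma.

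The sequences upstream of the genes are given for 4 members whose values the comparisons below turn on: *Etv5* and *Spred2*, higher in RasHIGH cells, *Dusp5*, which differed most between cultures and tumours, and *Dusp6*, whose levels in Ras and control cultures overlapped. Each line holds the 250 bases before the annotated start, 5′ to 3′ on the gene's strand, from RefSeq on GRCm38.p6. Capitals mark CGGAA, a form of the site that Ets factors bind, on either strand, and the CArG box, the element bound by serum response factor with its Ets partners. Sites with another base before GGAA were neither marked nor counted.

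Dusp5, chr19:53528895-53529144, plus strand: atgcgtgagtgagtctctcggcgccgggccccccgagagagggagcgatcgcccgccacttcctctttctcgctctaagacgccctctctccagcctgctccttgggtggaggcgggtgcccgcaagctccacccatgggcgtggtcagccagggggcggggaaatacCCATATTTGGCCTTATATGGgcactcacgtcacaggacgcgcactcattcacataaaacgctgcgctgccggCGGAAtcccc
Dusp6, chr10:99262981-99263230, plus strand: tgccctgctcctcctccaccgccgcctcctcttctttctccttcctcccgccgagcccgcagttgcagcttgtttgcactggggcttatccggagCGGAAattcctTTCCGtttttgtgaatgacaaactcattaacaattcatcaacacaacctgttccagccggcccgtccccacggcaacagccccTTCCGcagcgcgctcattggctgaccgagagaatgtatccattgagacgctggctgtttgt
Spred2, chr11:19924192-19924441, plus strand: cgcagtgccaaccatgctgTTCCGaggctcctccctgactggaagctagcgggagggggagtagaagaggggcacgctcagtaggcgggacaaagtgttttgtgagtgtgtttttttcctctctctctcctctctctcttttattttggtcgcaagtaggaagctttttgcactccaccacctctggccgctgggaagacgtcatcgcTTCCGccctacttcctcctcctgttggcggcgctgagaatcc
Etv5, chr16:22439571-22439820, minus strand: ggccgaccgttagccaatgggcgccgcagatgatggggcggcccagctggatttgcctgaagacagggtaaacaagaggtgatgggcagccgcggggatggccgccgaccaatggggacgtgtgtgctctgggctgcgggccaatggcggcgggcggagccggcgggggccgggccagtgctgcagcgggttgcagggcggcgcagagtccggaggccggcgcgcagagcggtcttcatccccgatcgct

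The *Dusp5* window held 2 CArG boxes side by side, which began 82 and 72 bases before the start, and 1 CGGAA at 10 bases before it. CArG boxes were present in 1.47% of the 32851 RefSeq windows of this length and CGGAA in 25.2%. The *Dusp6* window held CGGAA 3 times, at 155, 144 and 61 bases before the start, and the *Spred2* window held it 2 times, at 231 and 42 bases. *Spred1* had 1 CGGAA, at 17 bases, while the windows of *Spry2* and *Etv5* held neither CGGAA nor a CArG box. The window of a second annotated start of *Etv5* held neither of them. Other GGAA sites in these windows were not counted. TGANTCA, the AP-1 site, was in none of these 7 windows and in 6.75% of all windows. TGACGT, part of the cyclic AMP response element, was found 1 time each in the *Dusp5* window, at 56 bases, and in the *Spred2* window, at 52 bases, against 6.47% of all windows. These letter matches describe 250 bases only and were chosen with the sequences in view. RefSeq windows were available for 6 of the 10 genes.

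The first comparisons ask how the feedback genes follow the Ras level in culture. RasLOW cells had 1 of the 10 genes called higher than control cells and none lower, at an adjusted p under 0.05 over all genes, against a background of 5.96% of the 12307 genes tested. RasHIGH cells had 3 called, all higher, against 22.6% of 12331 genes. The median log2 fold change of the 10 genes was 0.36 in RasLOW and 0.64 in RasHIGH cells, with medians over all genes of 0.011 and -0.024. Both comparisons share the 3 control libraries. Overlap was counted with the libraries scaled by their counts over the tested genes, without TMM factors. On that scale 4 members in RasLOW and 4 in RasHIGH cells did not overlap with control. Over all genes this share was 27.7% and 42.6%. On the CPM with TMM factors printed below, *Spry4* and *Spred1* also did not overlap between RasHIGH and control cells.

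*Etv4* and *Etv5* encode Ets factors of the Pea3 group and gave the clearest differences. *Etv4* (chr11:101631056-101646685, minus strand, mm9) was at 48.5, 34.8 and 44.6 CPM in control, 111, 59.0 and 59.7 CPM in RasLOW cells and, in RasHIGH cells, 132, 137 and 118 CPM. No library of one group overlapped with those of another, so the order of the 3 groups held for every culture. The rise in RasHIGH cells was 2.94-fold (log2 fold change 1.56 ± 0.16 SE, adjusted p = 0.00119), and the 1.75-fold difference in RasLOW cells did not pass (adjusted p = 0.132).

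*Etv5* (chr16:22381382-22439792, minus strand, mm9) was at 17.4, 13.5 and 19.1 CPM in control, 35.1, 40.6 and 35.5 CPM in RasLOW cells and, in RasHIGH cells, 46.2, 36.1 and 27.5 CPM. Both Ras populations lay above all control libraries and overlapped with each other. The fold was 2.18 in RasLOW (log2 fold change 1.12 ± 0.18 SE, adjusted p = 0.0191) and 2.14 in RasHIGH cells (log2 fold change 1.10 ± 0.23 SE, adjusted p = 0.0153). Between the populations, *Etv4* stood 1.69-fold higher in RasHIGH than in RasLOW cells (log2 fold change 0.76 ± 0.26 SE) and *Etv5* differed by -0.018 ± 0.22 SE. Neither value passed over all genes (adjusted p = 0.38 and 0.987), and the difference between the factors was not tested.

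The call of *Etv5* in RasLOW cells was lost when any 1 control library or RasLOW 3 was left out (adjusted p up to 0.0727, log2 fold change 0.99 to 1.23). In RasHIGH cells it was lost without control 2 (adjusted p = 0.0606). Controls 1 and 2 were sequenced in another lane than control 3 and the Ras cultures. Within that common lane, where 1 control library remained, *Etv4* in RasHIGH cells was at a log2 fold change of 1.49 (adjusted p = 0.0557). *Etv5* was at 0.93 in RasLOW and 0.90 in RasHIGH cells. No member passed there, but the spread then came from the Ras libraries alone, and of all genes 0 of 12784 passed for RasLOW and 316 of 12813 for RasHIGH cells.

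Among the adaptors, *Spred2* (chr11:19824378-19924029, plus strand, mm9), which restrains the activation of Raf, was at 43.3, 42.3 and 44.3 CPM in control, 57.0, 65.9 and 53.2 CPM in RasLOW cells and, in RasHIGH cells, 88.0, 60.6 and 57.0 CPM. All 6 Ras libraries lay above the controls, and the fold in RasHIGH cells was 1.54 (log2 fold change 0.62 ± 0.18 SE, adjusted p = 0.0427). The call was lost without any 1 of the control libraries or without RasHIGH 2, with log2 fold changes of 0.60 to 0.71 and an adjusted p of up to 0.141. It was also lost on library totals only (adjusted p = 0.053), and the value was 0.59 within the common lane.

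*Spred1* (chr2:116947110-117008015, plus strand, mm9) differed less, from 74.6 ± 10.5 CPM in control to 97.0 ± 7.50 CPM in RasHIGH cells (SD, n = 3; adjusted p = 0.132). *Spry2* (chr14:106291166-106296036, minus strand, mm9) was at 139, 80.1 and 87.7 CPM in control, 179, 135 and 128 CPM in RasLOW cells and, in RasHIGH cells, 197, 121 and 172 CPM, with overlap between all groups. Its log2 fold changes of 0.49 ± 0.24 SE and 0.63 ± 0.27 SE did not pass (adjusted p = 0.311 and 0.139).

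*Spry4* was at 16.96, 11.7 and 18.1 CPM in control, 21.9, 31.8 and 19.3 CPM in RasLOW cells and, in RasHIGH cells, 63.2, 26.6 and 18.5 CPM. RasHIGH 1 was far above the other RasHIGH cultures, RasHIGH 3 was close to the highest control, and the 2.25-fold difference carried a wide error (log2 fold change 1.17 ± 0.44 SE, adjusted p = 0.104).

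The phosphatases did not pass in either Ras population. *Dusp6* (chr10:98725865-98730122, plus strand, mm9), the phosphatase most often used as a readout of Erk activity, was at 562, 441 and 435 CPM in control, 439.8, 551 and 464 CPM in RasLOW cells and, in RasHIGH cells, 674, 472 and 461 CPM. The groups overlapped throughout, with log2 fold changes of -0.013 ± 0.18 SE and 0.12 ± 0.19 SE (adjusted p = 0.981 and 0.701). *Dusp4* (chr8:35870351-35882948, plus strand, mm9) was at 69.3, 84.7 and 79.5 CPM in control, 75.1, 130.0 and 63.5 CPM in RasLOW cells and, in RasHIGH cells, 216, 109 and 82.1 CPM, and its 1.70-fold difference in RasHIGH cells rested mostly on RasHIGH 1 (adjusted p = 0.147).

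*Dusp5* (chr19:53603599-53616921, plus strand, mm9) was at 77.3, 104 and 63.9 CPM in control, 131, 73.5 and 106 CPM in RasLOW cells and, in RasHIGH cells, 167, 98.1 and 133 CPM. Its groups overlapped, with a log2 fold change of 0.66 ± 0.24 SE in RasHIGH cells (adjusted p = 0.0956).

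*Phlda1* (chr10:110943342-110945705, plus strand, mm9), which encodes a pleckstrin homology domain protein, was the member that lay lower with Ras. It was at 419, 340.2 and 306 CPM in control, 275, 322 and 259 CPM in RasLOW cells and, in RasHIGH cells, 258, 143 and 232 CPM. Every RasHIGH library was below every control and every RasLOW library, and the 1.73-fold lower level stood just outside the threshold (log2 fold change -0.79 ± 0.24 SE, adjusted p = 0.0507). It passed by DESeq2 (adjusted p = 0.0185). On leaving out 1 library it passed in 1 of 6 runs, without RasHIGH 1 (adjusted p = 0.0215), with an adjusted p of up to 0.157 in the others. Within the common lane the log2 fold change was -0.57.

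Between RasHIGH and RasLOW cells, 0 of the 10 genes passed edgeR's quasi-likelihood test or DESeq2, against 0.0752% of 11962 genes tested by edgeR, and 1, *Etv4*, had an unadjusted p under 0.05. Of all genes, 9 passed by edgeR and 419 by DESeq2. Scaled without TMM factors, 2 members, *Etv4* and *Phlda1*, did not overlap, against 15.5% of all genes. On the CPM with TMM factors *Spred1* did not overlap either. The plot of fold changes in culture shows both Ets factors and *Spred2* clear of 0 in RasHIGH cells and *Dusp6* near 0 in all 3 comparisons.

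**Figure D2:**
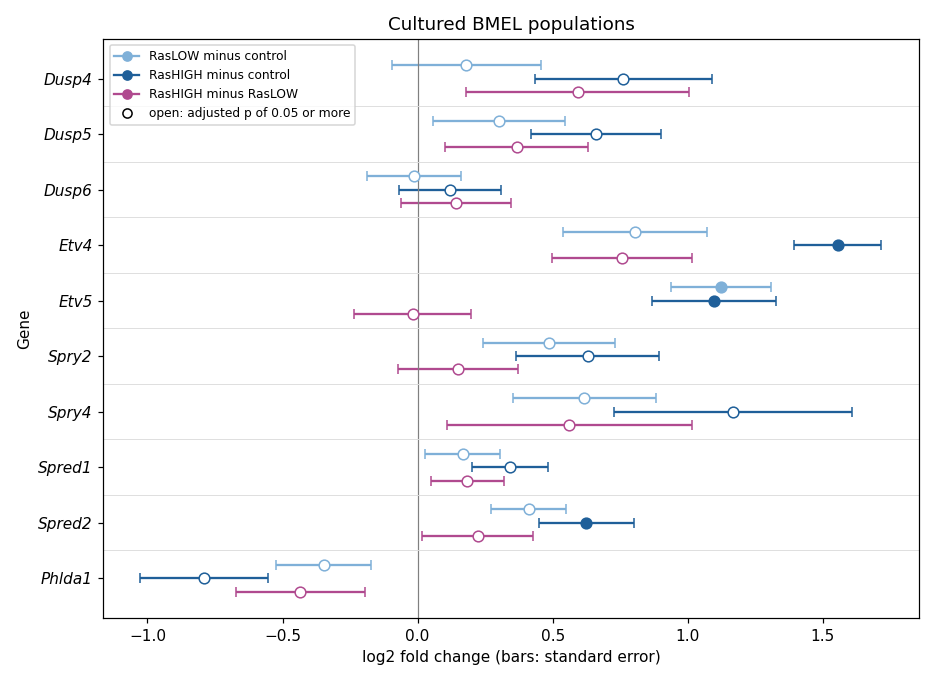
Log2 fold change of each gene between cultured populations, with bars of 1 standard error (3 libraries a group). Filled points passed an adjusted p of 0.05 over all genes: *Etv5* in RasLOW cells, and *Etv4*, *Etv5* and *Spred2* in RasHIGH cells, all above 0.

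The cultures of 1 population were not alike in these genes. RasHIGH 1 was the highest RasHIGH library for *Dusp4*, *Dusp5*, *Dusp6*, *Etv5*, *Spry2*, *Spry4*, *Spred2* and *Phlda1*, and RasLOW 2 was the highest RasLOW library for *Dusp4*, *Dusp6*, *Etv5*, *Spry4*, *Spred2* and *Phlda1*. *Egr1*, an immediate early gene of Erk signalling named here after its values were seen, was at 1123, 31.3 and 224 CPM in the RasHIGH, 111, 754 and 105 CPM in the RasLOW and 153, 99.9 and 276 CPM in the control libraries. The same 2 libraries were thus the highest for *Egr1*. Whether their state at harvest bears on the members was not tested. Without RasHIGH 1, the log2 fold change of RasHIGH over control was 0.28 for *Dusp4*, 0.51 for *Spry4* and 1.55 for *Etv4*.

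Other genes of the same families and of the cascade moved in both directions. Of 18 relatives tested, 5 were higher and 3 lower in RasHIGH than in control cells, with *Phlda2* at 8.53-fold higher (adjusted p = 0.00128), *Phlda3* at 2.18-fold lower (adjusted p = 0.00149) and *Ets2* at 1.96-fold lower (adjusted p = 0.00427). *Phlda2* went from 5.39 ± 0.664 CPM in control to 47.1 ± 19.7 CPM in RasHIGH cells (SD, n = 3), opposite in sign to *Phlda1* in the same libraries. Of 10 other genes that follow Erk, 1 was higher, *Errfi1*, an inhibitor of the EGF receptor, at 2.60-fold (adjusted p = 0.00171). The 4 that were lower included *Hbegf*, a ligand of that receptor, at 2.12-fold (adjusted p = 0.00563), and *Ccnd1*, cyclin D1, at 1.54-fold (adjusted p = 0.0112).

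Of the 14 genes of the Ras and Erk cascade, 4 were higher and 1 was lower in RasHIGH cells. *Rps6ka2*, a kinase activated by Erk, rose 9.84-fold (adjusted p = 5.69e-04), and *Ksr1*, a scaffold of the cascade, fell 2.86-fold (adjusted p = 0.00358). In RasLOW cells 1 relative was higher and 2 were lower, including *Dusp1*, a phosphatase of several MAP kinases, at 4.79-fold lower (adjusted p = 0.0334). *Errfi1* was 2.10-fold higher in RasLOW cells (adjusted p = 0.0133) and *Rps6ka2* 4.88-fold higher (adjusted p = 0.00218). The list medians in RasHIGH cells were 0.10, 0.077 and 0.043 for relatives, other Erk-responsive genes and cascade genes, each below the 0.64 of the 10 members.

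The next comparisons set the sorted tumour cells beside cultured RasHIGH cells. Liver tumour cells had 4 of the 10 genes called, all higher, against 45.1% of 12971 genes tested, and peritoneal tumour cells had 1, also higher, against 37.9% of 12791 genes, so the share of members called was at or below that of all genes. Growth in a mouse, dissociation, sorting and sequencing lane all went with these groups and cannot be told apart. Both comparisons share the RasHIGH libraries. Scaled without TMM factors, 6 members in liver and 2 in peritoneal tumour cells did not overlap with RasHIGH cells. Over all genes this share was 49.7% and 45.7%. On the CPM with TMM factors *Etv5* in liver tumour cells did overlap.

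*Dusp5* gave the largest difference of the members. It was at 448, 493, 639.5 and 579 CPM in liver and 471, 359.8, 427 and 495 CPM in peritoneal tumour cells, and all 8 tumour cell libraries were above the highest culture, a RasHIGH library at 167 CPM. The folds over RasHIGH cells were 4.09 (log2 fold change 2.03 ± 0.21 SE, adjusted p = 1.26e-04) and 3.33 (log2 fold change 1.74 ± 0.20 SE, adjusted p = 7.73e-04). Both calls held in every alternative run.

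*Spry4* was at 74.9, 72.9, 81.6 and 79.0 CPM in liver and 72.7, 57.8, 66.1 and 66.3 CPM in peritoneal tumour cells, with little spread beside the RasHIGH cultures. The fold was 2.14 in liver (adjusted p = 0.0335) and 1.84 in peritoneal tumour cells (adjusted p = 0.0951). RasHIGH 1 decided this value: without it the log2 fold change in liver tumour cells was 1.78, against 1.10 with it. In peritoneal tumour cells 5 members passed without RasHIGH 1, *Dusp4*, *Dusp5*, *Spry2*, *Spry4* and *Spred2*. Of all genes, 7050 of 13291 passed in that run, against 4846 of 12791 with RasHIGH 1 kept. In liver tumour cells 6 members passed without RasHIGH 1, a run for which the count over all genes is not given here. Without liver tumour 2, 2 members passed, *Dusp5* and *Spred2*, and 4510 of 12674 genes. The liver call of *Spry4* was lost without RasHIGH 2, RasHIGH 3 or any 1 of the liver tumour libraries (adjusted p up to 0.116).

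*Spred2* was at 96.8, 121, 134 and 127 CPM in liver tumour cells, 1.75-fold over RasHIGH cells (log2 fold change 0.81 ± 0.18 SE, adjusted p = 0.00631). Every liver tumour library was above every culture. *Spred1* was at 117, 150.0, 139.7 and 118 CPM there, 1.36-fold over RasHIGH cells (adjusted p = 0.0196), a call lost without RasHIGH 3 (adjusted p = 0.073) or liver tumour 2 (adjusted p = 0.0524).

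The Ets factors and *Dusp6* did not pass against RasHIGH cells. *Etv4* was at 139.7, 102, 115 and 138 CPM in liver and 122, 141, 148 and 165 CPM in peritoneal tumour cells, over the range of the RasHIGH cultures, with log2 fold changes of -0.049 ± 0.14 SE and 0.18 ± 0.12 SE (adjusted p = 0.794 and 0.271). *Etv5* was at 26.5 ± 1.82 CPM in liver tumour cells (SD, n = 4), between control and RasHIGH cells (log2 fold change against RasHIGH -0.46 ± 0.18 SE, adjusted p = 0.0602). *Dusp6* was at 449.8, 395, 426 and 353 CPM there, below all RasHIGH cultures (log2 fold change -0.39 ± 0.16 SE, adjusted p = 0.0728).

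*Egr1* and *Dusp1* are known to respond to tissue dissociation. *Egr1* was at 1064 to 2058 CPM in tumour cells, a range that took in RasHIGH 1, and did not pass against RasHIGH cells (adjusted p = 0.103 and 0.199 for liver and peritoneum). *Dusp1* was 15.1-fold higher in liver tumour cells than in RasHIGH cells (adjusted p = 0.00224) and 12.8-fold higher in peritoneal ones (adjusted p = 0.00533). *Hbegf* was 2.90-fold higher in liver tumour cells (adjusted p = 1.45e-04) and *Ksr1* 9.72-fold higher (adjusted p = 1.47e-05), both lower in RasHIGH than in control cultures. *Phlda2* was 7.87-fold lower in liver tumour cells (adjusted p = 5.75e-05), back at 5.94 ± 0.222 CPM (SD, n = 4). In all, 6 relatives were higher and 4 lower of 19 tested, 3 of the 10 other Erk-responsive genes were higher and 2 lower, and 5 of the 14 cascade genes were higher and 2 lower. In peritoneal tumour cells the same counts were 4 and 1, 3 and 3, and 4 and 0.

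**Figure D3:**
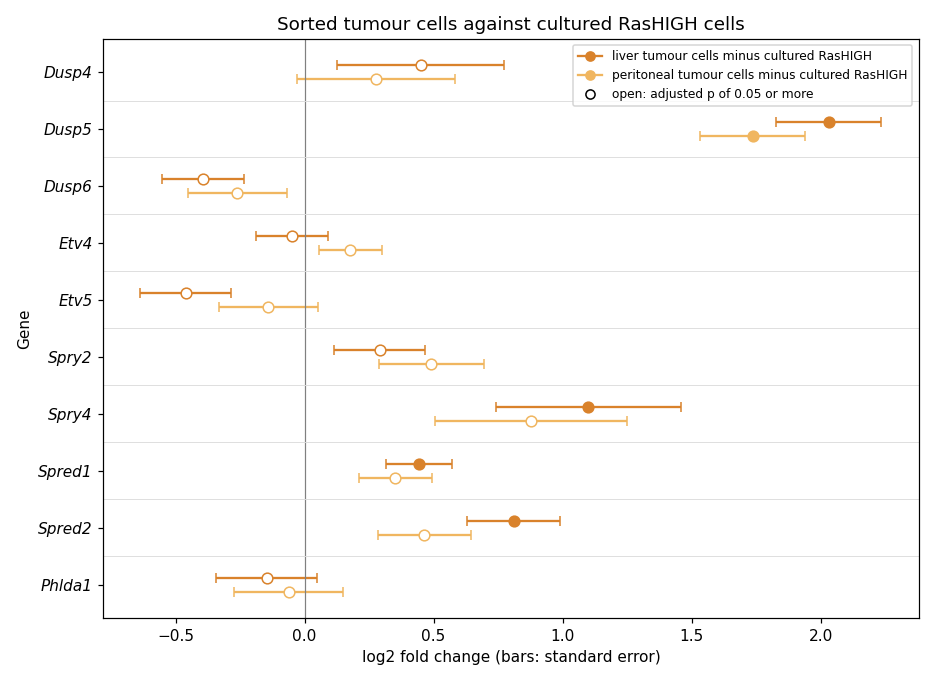
Log2 fold change of each gene in sorted tumour cells against cultured RasHIGH cells, with bars of 1 standard error (4 and 3 libraries). *Dusp5* lies near 2 on the log2 scale at both sites, and *Etv4*, *Etv5*, *Dusp6* and *Phlda1* are open points near or below 0, except *Etv4* in peritoneal tumour cells at 0.18.

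The third comparison asks whether tumour cells in the liver and in the peritoneum of the same mice differed in Erk feedback. Of the 10 genes, 0 passed edgeR's test and 0 passed DESeq2, against 3.2% of 13074 genes tested by edgeR, and 4 had an unadjusted p under 0.05. *Spred2* had the largest difference upwards, at 96.8, 121, 134 and 127 CPM in liver against 103, 85.0, 82.3 and 104 CPM in peritoneal tumour cells of mice 1 to 4 (log2 fold change 0.35 ± 0.12 SE, adjusted p = 0.135). In mouse 1 the order was the opposite of that in the other 3 mice. For *Spry4* the lowest liver library, at 72.9 CPM, was level with the highest peritoneal one, at 72.7 CPM. The groups overlapped when scaled without TMM factors. Its log2 fold change was 0.23 ± 0.086 SE (adjusted p = 0.175), and that of *Dusp5* was 0.30 ± 0.13 SE (adjusted p = 0.231).

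*Etv5* pointed the other way, at 26.4, 27.6, 23.9 and 27.9 CPM in liver and 26.3, 35.9, 33.4 and 36.2 CPM in peritoneal tumour cells (log2 fold change -0.31 ± 0.11 SE, adjusted p = 0.136). The peritoneal library of mouse 1 was the one within the liver range, and without it the difference passed (adjusted p = 0.0295). That library also held the highest *Spry2*, at 283 CPM, and *Egr1*, at 1948 CPM, of the peritoneal tumour cells. Its fibroblast markers summed to 1442 CPM and its leukocyte markers to 218 CPM, the highest of the 8 tumour cell libraries, and their part in its values was not tested. The median log2 fold change of the members was 0.0083, beside -0.0054 over all genes. Among the wider lists only *Ets1*, an Ets factor, passed between the sites, 1.27-fold higher in liver tumour cells (adjusted p = 0.0331).

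In the stroma of the same tumours, 5 of the 10 genes differed between liver and peritoneum, against 33.4% of 14755 genes tested. *Dusp5* was at 455, 353, 469 and 505 CPM in liver and 212, 220.5, 269.7 and 329 CPM in peritoneal stroma, 1.68-fold higher in liver (log2 fold change 0.75 ± 0.16 SE, adjusted p = 0.00538). *Dusp6* was at 307, 226, 227 and 263 CPM and 190.1, 150.2, 173 and 198 CPM, 1.397-fold higher in liver (adjusted p = 0.0142). For both genes every liver library was above every peritoneal one. With the stroma libraries scaled without TMM factors, 6 of the 10 members did not overlap between the sites, against 38.3% of all genes.

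*Phlda1*, *Spred1* and *Spry2* were lower in liver stroma. *Phlda1* was at 155, 123, 137 and 158 CPM in liver and 209, 227, 298 and 274 CPM in peritoneal stroma, 1.81-fold lower in liver (log2 fold change -0.86 ± 0.13 SE, adjusted p = 8.27e-04). *Spred1* was at 105, 115, 105 and 104 CPM and 141, 159, 126 and 150.5 CPM (log2 fold change -0.46 ± 0.09 SE, adjusted p = 0.00347). *Spry2* was at 38.0, 45.5, 42.6 and 45.0 CPM and 58.3, 53.0, 55.1 and 54.0 CPM, a small difference of -0.41 ± 0.08 SE with a narrow spread in both groups (adjusted p = 0.00372) that did not pass with all libraries in 1 fit (adjusted p = 0.131). On the CPM given here none of the 3 genes overlapped between the sites, and *Spred1* did overlap when the stroma libraries were scaled without TMM factors. *Etv4* overlapped on the CPM given here and not without TMM factors.

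The 2 stromas differed in cell type markers. The fibroblast markers summed to between 4119.9 and 8378 CPM in liver and to between 53472 and 81339 CPM in peritoneal stroma. The endothelial markers summed to between 507 and 1049 CPM and between 331 and 499 CPM. Among them *Stab2* averaged 137 and 0.96 CPM, and *Pecam1* 206 and 166 CPM. *Cdh5*, at 177 and 138 CPM in these stromas, was also at 125 and 139 CPM in liver and peritoneal tumour cells. The epithelial markers, which the tumour cells express, stood at 1216 to 1551 CPM in liver and 675 to 1106 CPM in peritoneal stroma without overlap, and the hepatocyte markers at 38.8 to 235 CPM and 0.476 to 1.91 CPM. In these bulk libraries, fewer cells of a type and less RNA per cell cannot be told apart, and the part of cell makeup, tumour cell RNA included, in the stromal values and in the interactions below was not tested. *Spry1*, a further Sprouty gene, was 3.55-fold lower in liver stroma (adjusted p = 4.06e-05), *Errfi1* 2.23-fold lower (adjusted p = 0.00167), and *Hbegf* 1.66-fold higher (adjusted p = 8.88e-04). In all, 8 of the 21 relatives were higher and 6 lower in liver stroma, 4 of the 10 other Erk-responsive genes were higher and 4 lower, and 4 of the 14 cascade genes were higher and none lower. With the mouse as a block, *Dusp4* joined the called members (adjusted p = 0.0242), at 54.5 ± 6.61 CPM in liver and 39.2 ± 10.6 CPM in peritoneal stroma (SD, n = 4).

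The site differences themselves differed between tumour cells and stroma for 3 of the 10 genes, by the interaction of site and fraction, against 14.3% of 15331 genes. For *Phlda1* the log2 difference between liver and peritoneum was -0.08 in tumour cells and -0.86 in stroma (interaction 0.70 ± 0.19 SE, adjusted p = 0.0219). For *Dusp6* it was -0.13 in tumour cells and 0.48 in stroma (interaction -0.69 ± 0.20 SE, adjusted p = 0.0308). For *Etv5* it was -0.31 in tumour cells and 0.23 in stroma (interaction -0.63 ± 0.14 SE, adjusted p = 0.00776).

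The median interaction over all genes was -0.12, so the value of *Phlda1* lay further from the bulk of genes and those of *Dusp6* and *Etv5* nearer to it than their size says. The call of *Dusp6* was lost on leaving out any 1 of 11 of the 16 libraries, namely liver tumour 2, 3 or 4, peritoneal tumour 1 or 3, liver stroma 1 or 4, or any peritoneal stroma library (adjusted p up to 0.125). With the mouse as a block, *Dusp5* passed too (adjusted p = 0.0272), at -0.53 ± 0.22 SE without it. *Spry1* and *Ccnd1* gave interactions of 1.43 (adjusted p = 6.84e-04) and -0.82 (adjusted p = 6.57e-04).

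**Figure D4:**
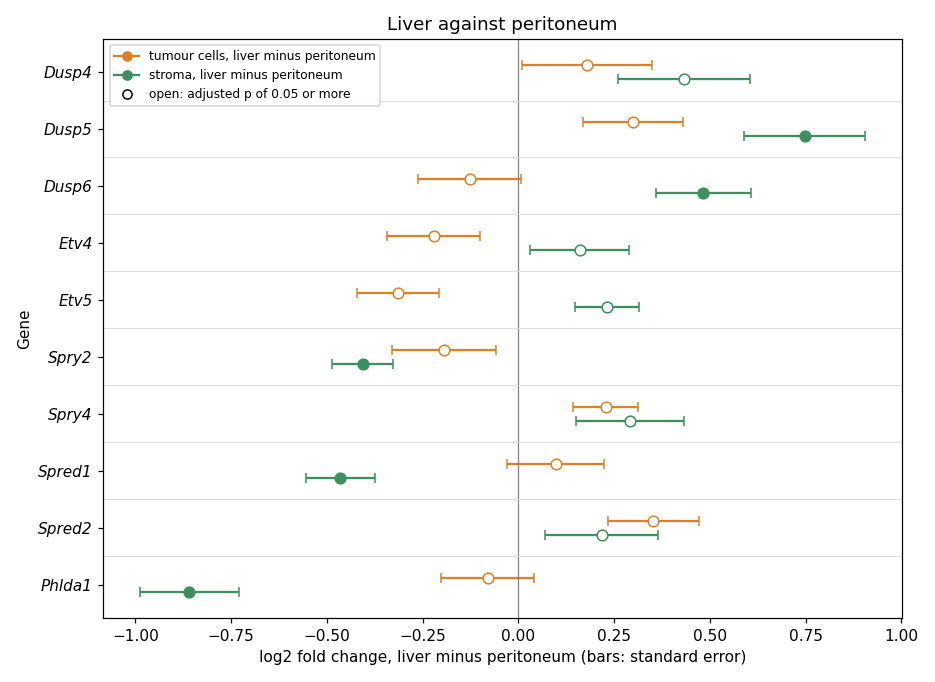
Log2 difference of each gene between liver and peritoneum, in tumour cells and in stroma, with bars of 1 standard error (4 mice a group). All tumour cell points are open, while *Dusp5* and *Dusp6* in stroma are filled above 0 and *Spry2*, *Spred1* and *Phlda1* in stroma are filled below 0.

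The last comparisons show in which sorted fraction of a tumour each feedback gene was the higher. In liver, 8 of the 10 genes were higher and 1 was lower in tumour cells than in stroma, against 77.8% of 14620 genes called. In peritoneum 7 were higher and 1 lower, against 76.6% of 14584 genes. Most genes differed between the fractions, so the counts stand at the background and the sizes carry the description. The median log2 fold change of the members was 0.85 in liver and 1.22 in peritoneum, beside 0.0036 and 0.07 over all genes.

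*Etv4*, *Spry2* and *Dusp4* stood furthest above stroma. *Etv4* was 4.72-fold higher than in stroma in liver (log2 fold change 2.24 ± 0.13 SE, adjusted p = 1.36e-08) and 6.75-fold higher in peritoneum (adjusted p = 1.03e-06), where stroma held 27.2, 22.8, 24.95 and 30.4 CPM and 18.3, 23.9, 25.3 and 24.04 CPM. *Spry2* was 4.67-fold higher in liver (adjusted p = 3.19e-09) and 4.41-fold higher in peritoneum (adjusted p = 2.44e-06). *Dusp4* was 3.41-fold and 4.45-fold higher, *Spry4* 2.83-fold and 3.24-fold, and *Spred2* 2.03-fold and 2.03-fold. No library of one fraction overlapped with the other for these 5 genes at either site. Scaled without TMM factors, 73% of all genes in liver and 74.3% in peritoneum did not overlap either. *Krt8*, an epithelial keratin of the tumour cells, averaged 3861 CPM in tumour cells and 552 CPM in stroma in liver, and 4597 and 366 CPM in peritoneum. The part of tumour cell RNA in the stromal levels, and so in the size of these folds, was not tested.

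*Etv5* was the exception in direction. It stood at 103, 91.1, 99.6 and 92.4 CPM in liver and 74.2, 80.3, 75.4 and 90.1 CPM in peritoneal stroma, 3.63-fold (log2 fold change -1.86 ± 0.085 SE, adjusted p = 1.96e-09) and 2.27-fold (log2 fold change -1.18 ± 0.12 SE, adjusted p = 2.94e-05) above the tumour cells. Among the sorted fractions, *Etv4* was thus higher in tumour cells and its relative *Etv5* in stroma. *Etv1*, the third gene of the Pea3 group and named here after its values were seen, had no count in any of the 9 cultures, which allows up to 0.135 CPM in the shallowest of them, and was at 5.13 ± 1.18 CPM in liver and 11.9 ± 6.11 CPM in peritoneal stroma (SD, n = 4).

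*Dusp6* was 1.59-fold higher in tumour cells in liver (adjusted p = 2.41e-04) and 2.67-fold in peritoneum (adjusted p = 4.80e-05). *Dusp5* was at 1.22-fold in liver (adjusted p = 0.072). It passed there with the mouse as a block (adjusted p = 0.0233) and without liver tumour 1 (adjusted p = 0.0245), and was 1.82-fold higher in peritoneum (adjusted p = 0.00117). *Spred1* and *Phlda1* were higher in liver tumour cells by 1.23-fold and 1.33-fold (adjusted p = 0.0136 and 0.00437), and in peritoneum their log2 fold changes of -0.13 ± 0.13 SE and -0.23 ± 0.15 SE did not pass. The *Spred1* call in liver was lost under another scaling, RLE (adjusted p = 0.0549), and *Phlda1* in peritoneum passed without peritoneal tumour 1 (adjusted p = 0.0206), lower in tumour cells.

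Among the wider lists, *Dusp9*, a cytoplasmic Erk phosphatase, was 6.38-fold and 10.8-fold higher in tumour cells (adjusted p = 4.50e-09 and 1.80e-06), and *Ccnd1* 6.23-fold and 11.4-fold (adjusted p = 4.00e-10 and 4.60e-07). *Ets2* was 4.46-fold and 2.91-fold lower (adjusted p = 3.71e-09 and 2.14e-06). In liver 11 of the 20 relatives tested were higher and 7 lower, 8 of 10 other Erk-responsive genes were higher and 2 lower, and 6 of 14 cascade genes were higher and 4 lower. In peritoneum 10 of 21 relatives were higher and 10 lower, 5 and 4 of 10 other Erk-responsive genes, and 8 and 4 of 14 cascade genes.

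**Figure D5:**
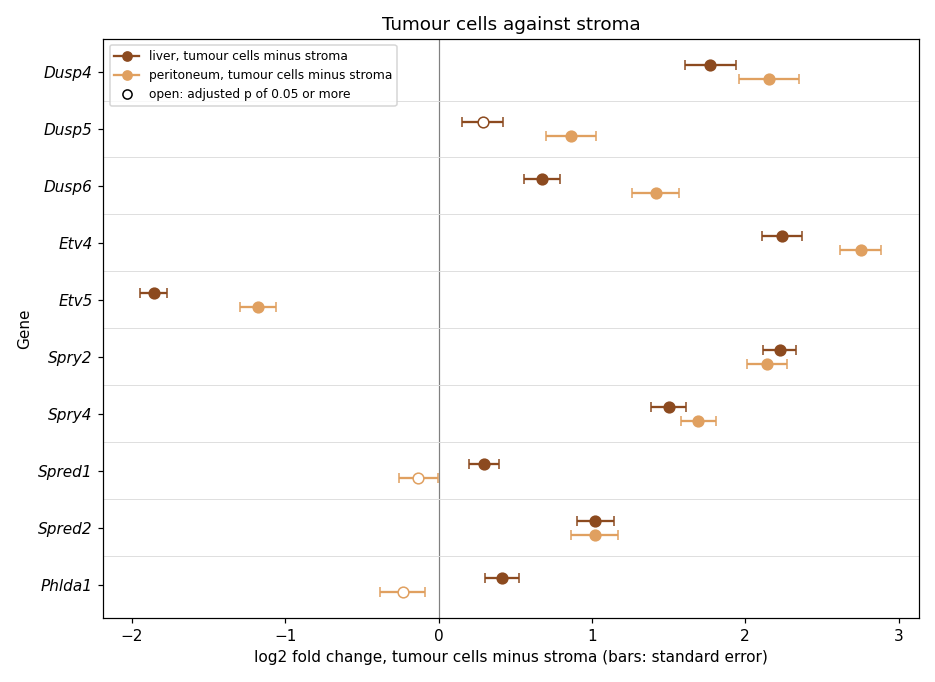
Log2 fold change of each gene in tumour cells against stroma, in liver and in peritoneum, with bars of 1 standard error (4 mice a group). *Etv4* and *Spry2* lie above 2 at both sites, *Etv5* lies at -1.86 and -1.18, and the open points are *Dusp5* in liver and *Spred1* and *Phlda1* in peritoneum.

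Across the 17 libraries of BMEL-derived cells, most members followed each other from library to library. The Pearson correlation of log2(CPM + 1) was 0.96 between *Spry4* and *Spred2*, 0.92 between *Spred1* and *Spred2* and 0.92 between *Dusp5* and *Spred2*. *Dusp6* stood apart, from -0.47 with *Dusp5* and -0.20 with *Spry4* to 0.20 with *Etv5* and 0.46 with *Phlda1*. *Etv5* followed less closely, from 0.15 with *Dusp5* to 0.63 with *Etv4*, and was at -0.46 with *Phlda1*. *Phlda1* ran opposite to most, at -0.80 with *Etv4* and -0.77 with *Spred1*. The values describe 5 groups that differ in lane and handling as well as in biology, and the correlations share those steps.

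Outside the list, the 5 genes whose pattern over these libraries was most like the mean of the 10 members, among 9967 genes, were *Camk2d* (Pearson r = 0.979), *Sh3pxd2b* (0.968), *Adgrl3* (0.966), *Plce1* (0.964) and *Zfand3* (0.961). *Plce1*, which encodes a phospholipase C, had a mean level of 15.4 CPM in control, 23.7 CPM in RasLOW cells and, in RasHIGH cells, 45.1 CPM, and 64.6 and 79.6 CPM in liver and peritoneal tumour cells. *Camk2d*, a calmodulin-dependent kinase, had means of 163, 268, 393, 488 and 489.7 CPM in the same order of groups. By the same measure the members themselves ranged from 0.951 for *Spry4* to -0.57 for *Phlda1*.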

How the data were processed

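mRNA libraries of 25 samples were sequenced on the Illumina platform. The authors deposited raw read counts for 24984 genes. Their methods give alignment with TopHat2 to mm9, while the submitters' processing notes list FastQC, Bowtie 0.12.2 and other builds; the counting program, strand setting and annotation are not given in the sources used here. If counting ignored strand, reads of a gene and an antisense partner cannot be told apart.

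Each pair of groups was fitted alone in edgeR 4.0.16 (R 4.3.3) with TMM factors, a minimum count of 10 in filterByExpr and the quasi-likelihood F-test. The interaction used the 16 tumour and stroma libraries. Genes were called at a Benjamini-Hochberg adjusted p under 0.05 over all genes tested. A standard error is the log2 fold change divided by the square root of F. The method was tested on simulated data. Groups came from the sample labels. The 10 genes, the 3 wider lists (21 relatives, 10 other Erk-responsive genes and 14 cascade genes) and the marker lists were chosen with earlier results of these data known, and up to 4 genes of a wider list were named per comparison by smallest adjusted p. Mouse numbers give the animal of each sample. The mean correlation of deviations within a mouse was -0.039 between tumour sites and 0.18 between stroma sites. Between tumour cells and stroma it was 0.225 in liver and 0.194 in peritoneum. The main tests did not use the mouse as a block. Exon lengths and positions came from GENCODE vM1 on mm9. Alternatives were DESeq2 1.42.0, RLE factors, no filter, the study's thresholds, 1 fit of all libraries, replicate blocks, lane, and leaving out each library. Scaling by library totals only was added after the data were seen. A floor of 3 counts set the limit for a gene at 0, which covers counting error only.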

Additional observations from a re-analysis of the deposited data

Results flagged for a closer look

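Of 40 groups of 4 libraries tested for a stray sample among the 10 genes, 1 had one, and chance flags about 5% of groups. *Spred1* in liver stroma of mouse 2 was at 114.5 CPM, with a gap to the next library of 0.884 of the group's range, above the critical value of Dixon's test. The other 3 liver stroma libraries were close together, at 105, 105 and 104 CPM, and all 4 were below the peritoneal stroma.

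The effect of site differed between tumour cells and stroma for 3 genes by the interaction test, against 14.3% of all genes. For *Phlda1* the interaction was 0.70 on the log2 scale (adjusted p = 0.0219), and *Phlda1* differed between the sites in stroma, where it was lower in liver. For *Dusp6* the interaction was -0.69 (adjusted p = 0.0308) and for *Etv5* it was -0.63 (adjusted p = 0.00776). The site difference of *Dusp6* passed in stroma, where it was higher in liver, and not in tumour cells. That of *Etv5* passed in neither fraction. The interaction of *Dusp6* passed in 5 of 16 runs that left out 1 library.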

How the results depend on the processing

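Counts of members called kept within 1.5 times of the main value in 129 of 155 alternatives, and single genes kept their direction in 1522 of 1550. The latter include the study's thresholds, which reuse the main fold changes and so could not turn a direction. Counts in brackets, as 1622 of 12307, are the genes that passed of all genes tested in that run. For RasLOW against control, 2 members passed with DESeq2 (1622 of 12307) and with all libraries in 1 fit (2440 of 15757). Under the study's thresholds (542 of 12307) and with the replicate block (295 of 12307) 0 passed, and 0 to 2 on leaving out 1 library. In lane 4, the common lane, 1 control library remained. For RasHIGH against control, 6 passed with DESeq2 (3474 of 12331), 8 with all libraries (4347 of 15757) and 1 under the study's thresholds (1190 of 12331). With the replicate block 4 passed (2203 of 12331), and 1 (without control 2) to 4 on leaving out 1 library. RasHIGH against RasLOW had 1, *Etv4*, with all libraries (917 of 15757). Culture numbers did not pair the samples (mean correlation -0.13, 0.061 and -0.31, with 0, 2 and 0 libraries correlating best with their own number). Liver against peritoneal tumour cells had 0 to 1 on leaving out 1 library. Stroma between sites had 0 under the study's thresholds (2107 of 14755), 8 on library totals only (5743 of 14755) and 6 with the mouse as a block (5615 of 14755). Tumour cells against stroma in liver had 10 with that block (11767 of 14620). Against RasHIGH, liver tumour cells had 2 under the study's thresholds (3050 of 12971) and 2 to 6 on leaving out 1 library. Peritoneal tumour cells had 3 with DESeq2 (5444 of 12791), 5 with all libraries (6925 of 15757) and 1 to 5 on leaving out 1 library. The interaction had 0 under the study's thresholds (1624 of 15331), 1, *Spred1*, with all libraries (1180 of 15757) and 4 with the mouse block (2645 of 15331). That block changed no other count of members.

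Direction turned for the following values, none of them past the threshold. In RasLOW against control, *Dusp6* was at 0.0024 with no filter, 0.016 with all libraries and 0.13 within lane 4, and *Spred1* at -0.047 within lane 4. *Spred2* in the interaction was at -0.031 on library totals only. On leaving out 1 library, RasLOW against control ranged from -0.21 to 0.38 for *Dusp4* and -0.13 to 0.12 for *Dusp6*, and RasHIGH against control from -0.061 to 0.26 for *Dusp6*. RasHIGH against RasLOW ranged from -0.043 to 0.25 for *Dusp6*, -0.21 to 0.17 for *Etv5* and -0.098 to 0.89 for *Spry4*. Between tumour sites *Dusp6* ranged from -0.22 to 0.0040 and *Phlda1* from -0.16 to 0.032. Liver tumour cells against RasHIGH ranged from -0.12 to 0.041 for *Etv4* and -0.37 to 0.019 for *Phlda1*, and peritoneal ones from -0.32 to 0.057 for *Etv5* and -0.29 to 0.10 for *Phlda1*. The interaction ranged from -0.021 to 0.20 for *Spred2* and -0.23 to 0.0062 for *Spry4*. The causes were not tested.

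Over all genes, calls for RasLOW against control numbered 734 in the main test, 1622 with DESeq2, 2440 with all libraries and 295 with the replicate block. For RasHIGH against control they numbered 2789, 4347 with all libraries and 316 within lane 4, and for RasHIGH against RasLOW 9, 77 with no filter and 917 with all libraries. For tumour sites they numbered 419, 1146 with DESeq2, 102 with the mouse block and 195 with lane as a term. On library totals only, the share of higher calls went from 41.5% to 27.1% between tumour sites, 44.7% to 61.9% between stroma sites and 47.5% to 31.6% in the interaction. The 3 control cultures, 2 of them in another lane, limit every statement on Ras in culture.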
